A study of Mus musculus with 6 samples.

Results

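Complement, macrophage and lymphocyte genes were read in the apex of the heart ventricles in a transgenic mouse model of PR-M, a progesterone receptor of human origin that is found in mitochondria. The set was a fixed list of 42 genes, and 39 of them were read by a probe set with exactly 1 gene symbol, among 18193 such genes on the array. C3 and Cfd were not analysed here, and C4b was skipped because its probe set is shared with C4a. The members were 9 complement genes, 12 macrophage and myeloid genes, 4 genes of antigen class II, 9 lymphocyte genes, 4 chemokine genes and Ptprc. Affymetrix Mouse Genome 430 2.0 arrays were hybridised with total RNA of 3 samples labelled PR-M expressing and 3 labelled PR-M non-expressing. Both groups had received 2.5 mg of progesterone in oil under the skin for 19 to 21 days, so no array shows the heart without the added hormone. The labels name no strain, age, sex, promoter or cell type for the transgene, and do not say how expression of PR-M was established. Whether each sample is a different animal is not stated either, and the p-values therefore describe how these 6 samples vary.

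The complement system is a cascade of blood and tissue proteins that marks cells and debris for clearance. C1q binds its target and activates the proteases C1r and C1s, which start the classical pathway, while Serping1 encodes the inhibitor of these proteases. In the heart, resident macrophages are the most abundant leukocytes and a main source of C1q, and fibroblasts also make complement proteases and their inhibitor. Class II proteins present peptides to CD4 T cells, and chemokines guide leukocytes through receptors on their surface.

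No member passed the test between the groups. Values are the deposited log2 expression values, and differences are expressing minus non-expressing. With limma, Benjamini-Hochberg adjustment over 18193 genes and a threshold of 0.05, 0 of the 39 members were called, against 4 of all genes (0.0220%). The lowest adjusted p among members was 0.127, for the chemokine gene Ccl6. At an unadjusted p under 0.05 there were 5 members, 3 higher and 2 lower, beside 12.6% of all genes (5.27% higher and 7.33% lower). The 3 expressing and the 3 non-expressing arrays did not overlap in 6 members, 3 higher and 3 lower, beside 19.0% of all genes. Both counts, of 39, lay near these shares, so they are no result about the members. Over every probe set of the members, 66 in all, 0 passed (limma, adjusted over 45037 probe sets, of which 0.0133% passed), and the lowest adjusted p was 0.121. There were 27 further probe sets of 15 members, and 19 had the sign of the representative one and 8 the opposite sign. Only 10 of the 39 members had a difference larger than the pooled SD within the groups, against 42.1% of all genes.

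The directions of the differences were not alike in the member groups. All 9 complement genes had positive differences, with a median of 0.15, whereas 7 of the 9 lymphocyte genes had negative ones, with a median of -0.07. The macrophage genes had 8 positive and 4 negative differences with a median of 0.08, the class II genes 2 of each with a median of -0.01, and the chemokine genes 1 positive and 3 negative with a median of -0.09. Over all genes 44.0% of the differences were positive and the median was -0.02. In bulk RNA, fewer cells of a type and less RNA per cell cannot be told apart.

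**Figure D1:**
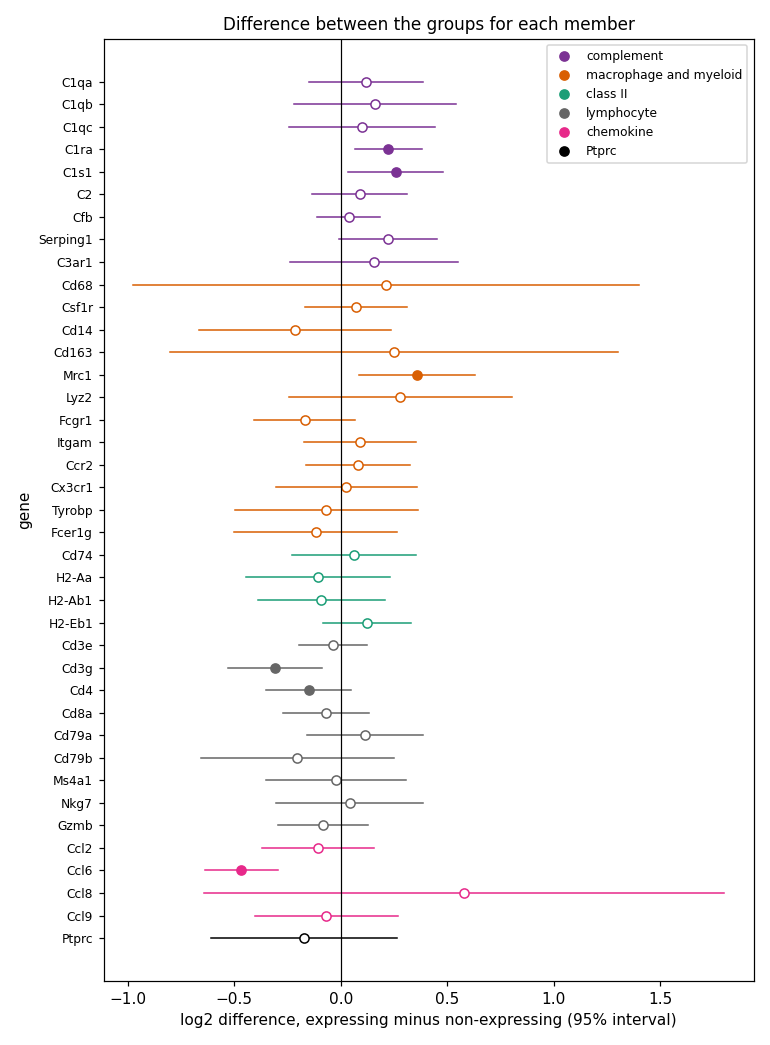
Log2 difference (expressing minus non-expressing) of each of the 39 members, with its 95% interval from limma, 3 arrays in each group. Colours mark the member groups and filled points the 6 members whose groups did not overlap; the intervals of Ccl8, Cd68 and Cd163 were the widest.

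The arrays were alike in scale, with medians from 5.77 to 5.78 and correlations between arrays from 0.992 to 0.997. Muscle markers matched the labelled tissue: the 6 cardiomyocyte markers had a mean level between 14.4 and 14.5 on every array. Several measures that are no members moved with the groups, and their part in the values below was not tested. Probe sets for 18S ribosomal RNA, among the array controls, had a level of 8.31 ± 0.22 (SD, n = 3) in expressing and of 9.88 ± 0.38 (SD, n = 3) in non-expressing arrays. These did not overlap (two-sided exact permutation test, p = 0.1, which is the lowest p that groups of this size can give). The actin 3′ minus 5′ difference, a sign of RNA integrity, was 1.20, 1.28 and 1.20 in expressing and 1.43, 1.30 and 1.42 in non-expressing arrays, likewise without overlap (exact permutation p = 0.1). The same measure of Gapdh did overlap, at 0.10, 0.22 and 0.19 against 0.30, 0.16 and 0.28 (exact permutation p = 0.3). The mean level of 4 atrial markers lay between 9.10 and 11.05 in expressing and between 6.75 and 7.25 in non-expressing arrays. The sample titles carry 1 prefix in the expressing group and 2 in the non-expressing group, where replicate 1 has its own, and no prefix holds both groups.

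Among the complement genes, those of the C1 proteases lay apart between the groups, at small differences that did not pass. C1ra, which encodes a C1r protease, was at 8.40, 8.34 and 8.47 in the expressing arrays and at 8.19, 8.17 and 8.19 in the non-expressing arrays. The lowest expressing array was above the highest non-expressing one, and the difference of 0.22 (SE 0.07, 95% interval 0.07 to 0.38) is a 1.17-fold one (limma adjusted p 0.294). C1s1, which encodes a C1s protease and lies in the same region of chromosome 6, was at 8.92, 8.71 and 8.86 against 8.67, 8.41 and 8.64. Its groups did not overlap either, with a difference of 0.26 (SE 0.10, 95% interval 0.03 to 0.48, limma adjusted p 0.346). C1r and C1s have close copies in the mouse, C1rb and C1s2, and signal shared with them cannot be separated here. Beside these 2 complement genes higher without overlap, 8.16% of all genes were so.

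The promoter of C1ra is shown because C1ra had the lowest p of the complement genes. It runs from upstream to just past the gene's start, 5′ to 3′, from RefSeq (GRCm38.p6), and 26 of the 39 members had such a window. Capitals mark matches to any of 5 motifs searched on both strands: TTCNNNGAA, bound by STAT factors, GAGGAAG, bound by the myeloid factor PU.1, TATAAA, and the class II motifs described further on.
C1ra, chr6:124512371-124512670, plus strand: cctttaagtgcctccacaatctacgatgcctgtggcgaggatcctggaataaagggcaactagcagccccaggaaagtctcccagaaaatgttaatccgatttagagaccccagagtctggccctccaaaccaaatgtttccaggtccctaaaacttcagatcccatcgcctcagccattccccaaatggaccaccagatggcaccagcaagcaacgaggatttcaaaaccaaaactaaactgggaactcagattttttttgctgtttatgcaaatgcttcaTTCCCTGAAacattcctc
The capitals here are a match to the STAT motif, and they lie past the gene's start rather than upstream of it. Of 32851 promoter windows of the same length, 8.30% hold this motif. Of the member windows, 4 of 28 hold it.

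Serping1, whose product inhibits C1r and C1s, was at 11.38, 11.58 and 11.52 in the expressing arrays and at 11.18, 11.18 and 11.45 in the non-expressing arrays. Non-expressing replicate 3 lay among the expressing arrays, and the difference was 0.22 (SE 0.10, limma adjusted p 0.409). The mean level of 6 fibroblast markers moved with these genes, at 10.51 to 10.68 in expressing and 10.33 to 10.46 in non-expressing arrays, which did not overlap, and all 6 had positive differences with a median of 0.18. The part of this in the complement values was not tested.

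The genes of the C1q chains, which lie side by side on chromosome 4, followed each other across the arrays rather than the groups. C1qa was at 10.34, 10.10 and 10.23 in the expressing arrays and at 10.34, 10.04 and 9.94 in the non-expressing arrays. C1qc, named like C1qb after its values were seen, was at 9.64, 9.43 and 9.54 against 9.79, 9.31 and 9.21. In all 3 genes replicate 1 was the highest array of each group. The differences of C1qa, C1qb and C1qc were 0.12, 0.16 and 0.10, with limma adjusted p of 0.702, 0.721 and 0.819. The intervals reached from -0.25 for C1qc to 0.54 for C1qb.

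The other complement genes differed little. C2 and Cfb, which encode the proteases of the classical and the alternative C3 convertase, had differences of 0.09 and 0.04, and C3ar1, the receptor gene for the C3a peptide, one of 0.15 (limma adjusted p 0.737, 0.848 and 0.740). The further probe sets of C3ar1 had the opposite sign, at -0.13 and -0.42. Of 15 measured genes of the lectin pathway and the terminal complex 0 passed, with 7 positive differences and 8 negative and a median of -0.01. The lowest p among them were those of C8b, of the membrane attack complex, with -0.40 (limma adjusted p 0.281), and Masp2, a protease gene of the lectin pathway, with 0.18 (0.407). Both had means below the median probe set, a level that may be background. Of 13 complement regulators and receptors 0 passed, with 9 positive differences. Cd59a, which encodes a surface inhibitor of the terminal complex, had one of 0.24 (limma adjusted p 0.343), and Cfi, the gene of complement factor I, one of 0.19 (0.416).

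**Figure D2:**
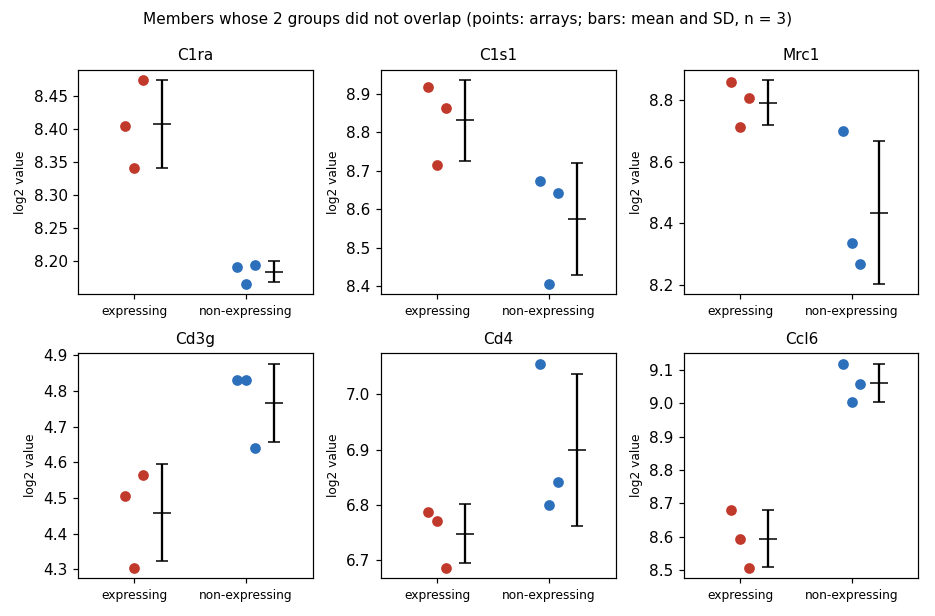
Log2 values of the 6 members whose groups did not overlap, each panel with its own scale; points are arrays and bars the mean and SD (n = 3 each). C1ra, C1s1 and Mrc1 were higher and Cd3g, Cd4 and Ccl6 lower in the expressing arrays, none past the adjusted threshold.

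Among the macrophage genes, Mrc1 alone lay apart between the groups. Beside this 1 of 12 genes higher without overlap, 8.16% of all genes were so. Mrc1 encodes the mannose receptor CD206, a surface protein of resident macrophages and of some endothelial cells. Mrc1 was at 8.86, 8.71 and 8.81 in the expressing arrays and at 8.70, 8.34 and 8.27 in the non-expressing arrays. Non-expressing replicate 1 came close to the lowest expressing array, and the difference of 0.36 (SE 0.12, 95% interval 0.09 to 0.63) is 1.28-fold (limma adjusted p 0.313). Csf1r, the gene of the receptor on which macrophages depend for survival, was at 10.81, 10.80 and 10.85 against 10.98, 10.64 and 10.63, with a difference of 0.07 (SE 0.10, 95% interval -0.17 to 0.31, limma adjusted p 0.813). The groups overlapped, with non-expressing replicate 1 above all other arrays.

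The promoter of Mrc1 is shown because Mrc1 had the lowest p of the macrophage genes.
Mrc1, chr2:14229164-14229463, plus strand: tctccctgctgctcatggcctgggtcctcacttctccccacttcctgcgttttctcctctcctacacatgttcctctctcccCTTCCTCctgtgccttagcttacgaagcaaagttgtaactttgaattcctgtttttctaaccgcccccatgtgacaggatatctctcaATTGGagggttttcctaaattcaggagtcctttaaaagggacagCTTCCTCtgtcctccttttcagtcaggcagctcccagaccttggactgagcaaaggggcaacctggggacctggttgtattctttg
Capitals mark 2 matches to the PU.1 motif on the minus strand, CTTCCTC as printed, and 1 to CCAAT, printed as ATTGG. The PU.1 motif is held by 13.6% of all windows and CCAAT by 37.4%.

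The spread between arrays of the same group was larger than the difference between the groups in 36 of the 39 members (92.3%), near the 89.3% of all genes, and among the members it was wide in Cd68, Cd163 and Ccl8. Cd68, a lysosomal protein gene of macrophages, was at 8.53, 7.56 and 7.36 in the expressing arrays and at 8.82, 7.13 and 6.86 in the non-expressing arrays. Replicate 1 was by far the highest array in both groups, and the difference between groups was 0.21 (SE 0.51, limma adjusted p 0.895). Cd163, the gene of the haemoglobin scavenger receptor of resident macrophages, ran the other way, at 6.05, 7.32 and 7.30 against 5.72, 7.23 and 6.97. Here the same arrays were the lowest of their groups, and the difference was 0.25 (SE 0.45, limma adjusted p 0.855). Cd68 and Cd163 were singled out after their values were seen.

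Both patterns were also seen in genes that are no members, likewise chosen after their values were seen. Ms4a7, a macrophage membrane protein gene, was at 9.48, 8.11 and 8.10 in the expressing arrays and at 10.13, 8.30 and 8.26 in the non-expressing arrays. Lyve1, the hyaluronan receptor gene of lymphatic endothelium and of resident macrophages, was at 7.28, 9.22 and 9.36 against 7.75, 9.24 and 9.33. Vsig4, from the list of complement receptors and made by resident macrophages, was at 5.65, 6.82 and 6.85 against 5.44, 6.26 and 6.11. In each of them replicate 1 differed from both other arrays of its group, upward for Ms4a7 and downward for Lyve1 and Vsig4. These replicate numbers are names only and pair no samples. Replicate 1 was the highest array in both groups for 18 of the 39 members, against 13.2% of all genes, and the lowest in both for 8, against 14.1%. Over the 16 further markers of resident macrophages it was highest in both groups for 7 and lowest in both for 4.

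**Figure D3:**
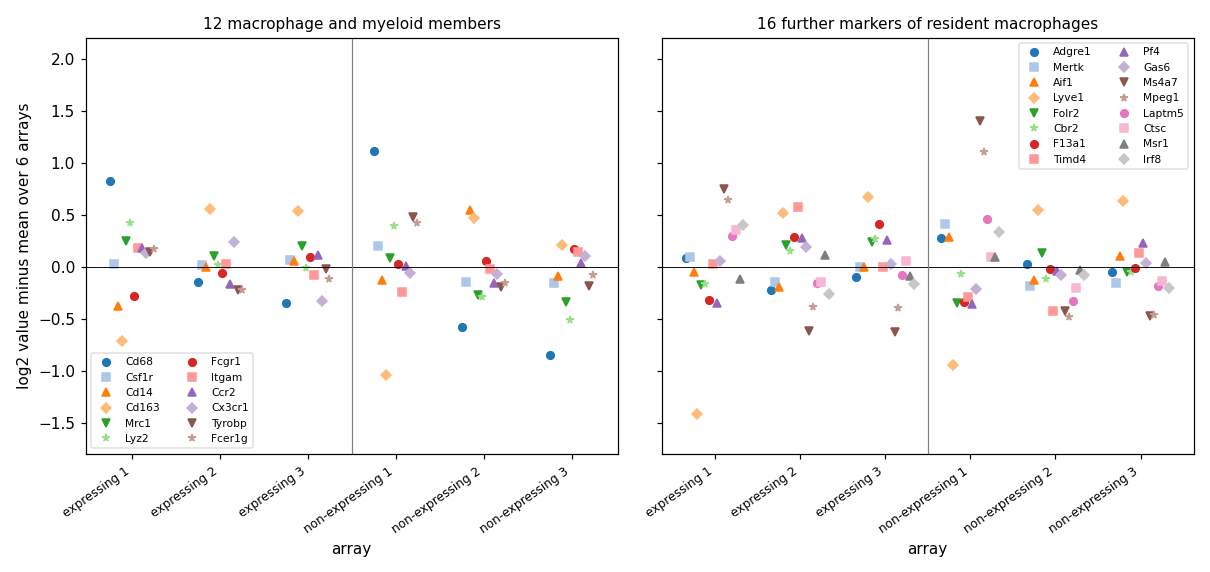
Deviation of each gene from its mean over the 6 arrays (log2), on each array, for all 12 macrophage and myeloid members (left) and all 16 further markers of resident macrophages (right). Both panels hold genes highest in replicate 1 of each group, such as Cd68 and Ms4a7, and genes lowest there, such as Cd163 and Lyve1.

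The other macrophage and myeloid genes overlapped between the groups. Lyz2, the lysozyme gene of macrophages, which has a close copy, Lyz1, was at 11.50, 11.10 and 11.07 in the expressing arrays and at 11.47, 10.79 and 10.57 in the non-expressing arrays. Its arrays of highest value were again replicate 1, and the difference was 0.28 (SE 0.23, limma adjusted p 0.639). Fcgr1, the gene of the high-affinity IgG receptor, was at 6.37, 6.59 and 6.74 against 6.68, 6.71 and 6.82, with a difference of -0.17 (SE 0.10, limma adjusted p 0.524). The adaptor genes Tyrobp and Fcer1g, which carry signals of activating receptors in myeloid and natural killer cells, had differences of -0.07 and -0.12. Those of the monocyte receptor genes Ccr2 and Cx3cr1 were 0.08 and 0.03, though the further probe sets of Ccr2 had the opposite sign, at -0.09, -0.22 and -0.10, that of the endotoxin co-receptor gene Cd14 was -0.22 and that of the integrin gene Itgam 0.09. Itgam, at 3.80 to 4.23 on all arrays, lay below the array medians and may not be read above background. Of 16 further markers of resident macrophages 0 passed, 8 were positive and 8 negative, and the median was 0.01. The lowest p among them were those of Timd4, a phosphatidylserine receptor gene, with 0.39 (limma adjusted p 0.437), and Gas6, a ligand gene for receptors that clear dead cells, with 0.18 (0.439).

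The groups overlapped in all 4 class II genes. In 1 of these 4 the difference was larger than the pooled SD within the groups, beside 42.1% of all genes. H2-Aa, the gene of the A alpha chain, was at 9.91, 9.33 and 9.44 in the expressing arrays and at 9.78, 9.64 and 9.59 in the non-expressing arrays, with a difference of -0.11 (SE 0.15, 95% interval -0.45 to 0.23, limma adjusted p 0.794). Cd74, the gene of the invariant chain that escorts class II proteins, was at 9.57, 9.12 and 9.12 against 9.25, 9.13 and 9.22, with a difference of 0.06 (SE 0.13, limma adjusted p 0.869). H2-Eb1, the gene of the E beta chain, was at 6.56, 6.35 and 6.31 against 6.19, 6.31 and 6.34, with a difference of 0.12 (SE 0.09, limma adjusted p 0.597). Expressing replicate 1 was the highest array of its group in these 3 genes and in H2-Ab1, the A beta chain gene, whose difference was -0.09 (limma adjusted p 0.803). Without that array the median of the 4 class II genes was -0.16. Of 11 genes that load or regulate class II proteins 0 passed, with a median of -0.02, among them Lgmn, a lysosomal protease gene, with 0.19 (limma adjusted p 0.386), H2-DMb2, of the peptide exchange factor, with -0.11 (0.569), and Ciita, the master activator of class II genes and named here for that role, with -0.09 (0.802).

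The promoters of H2-Aa and H2-Eb1 are shown because class II genes were highest of the expressing arrays in replicate 1 and share control boxes. Among the non-expressing arrays, replicate 1 was the highest for H2-Aa and the lowest for H2-Eb1. The Y box is read as CCAAT, and the X box, bound by the RFX complex, was searched by a part of it, ACNGATG.
H2-Aa, chr17:34287774-34288073, minus strand: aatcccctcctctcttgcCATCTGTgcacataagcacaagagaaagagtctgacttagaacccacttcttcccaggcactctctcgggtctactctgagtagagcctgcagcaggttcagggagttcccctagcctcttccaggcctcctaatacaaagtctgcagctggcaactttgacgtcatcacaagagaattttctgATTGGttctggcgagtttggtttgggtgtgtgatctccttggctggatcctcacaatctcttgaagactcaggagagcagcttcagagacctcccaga
H2-Eb1, chr17:34305617-34305916, plus strand: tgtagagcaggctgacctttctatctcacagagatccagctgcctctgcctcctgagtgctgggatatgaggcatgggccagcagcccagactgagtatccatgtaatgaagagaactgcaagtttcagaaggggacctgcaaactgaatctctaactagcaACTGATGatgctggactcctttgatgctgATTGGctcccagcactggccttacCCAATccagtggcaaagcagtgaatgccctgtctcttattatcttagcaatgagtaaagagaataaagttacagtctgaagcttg
In H2-Aa the capitals are a match to ACNGATG on the minus strand, printed as CATCTGT, 232 to 226 bases upstream of the start. A CCAAT match, printed as ATTGG, lies far from it, at 48 to 44 bases. This CATCTGT is a match of letters only, and whether it works as an X box was not tested. The search marked no stretch beside the CCAAT match, so an X box there would go unmarked. In H2-Eb1 they are ACTGATG, followed by an ATTGG and a CCAAT. Of all windows 9.85% hold ACNGATG and 37.4% CCAAT, and of the 28 member windows 3 and 7 do.

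Lymphocyte genes were dim in this tissue, and 6 of the 9 had a mean below the median probe set of 5.77. Cd3g, the gene of the gamma chain of the T cell receptor complex, was at 4.51, 4.31 and 4.56 in the expressing arrays and at 4.83, 4.83 and 4.64 in the non-expressing arrays. Its groups did not overlap, with a difference of -0.31 (SE 0.09, 95% interval -0.53 to -0.09, limma adjusted p 0.296), at a level that may be background. Cd4, the gene of the co-receptor of helper T cells and also made by some macrophages, was at 6.79, 6.77 and 6.69 against 7.06, 6.80 and 6.84. The groups were apart by little, with a difference of -0.15 (SE 0.09, limma adjusted p 0.50), and its other probe set had a difference of -0.03. Beside these 2 lymphocyte genes lower without overlap, 10.8% of all genes were so.

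In Cd3e, the epsilon chain gene, the groups overlapped. It was at 7.48, 7.46 and 7.56 against 7.47, 7.59 and 7.54, with a difference of -0.03 (SE 0.07, 95% interval -0.19 to 0.12, limma adjusted p 0.868). Cd8a, the co-receptor gene of cytotoxic T cells, had a difference of -0.07. Of its 4 further probe sets, with differences from -0.23 to 0.08, 1 lay lower without overlap, at 3.92, 3.98 and 3.92 against 4.06, 4.12 and 4.02, a level below the array medians (difference -0.13, limma adjusted p over all probe sets 0.517). Of all probe sets 18.6% did not overlap. The B cell genes Cd79a and Cd79b, of the B cell receptor complex, and Ms4a1, which encodes CD20, had differences of 0.11, -0.20 and -0.02. Nkg7 and Gzmb, of cytotoxic granules, had differences of 0.04 and -0.08. On their representative probe sets, all of the lymphocyte genes other than Cd3e and Cd4 lay under 6 on every array. Of the further markers, 0 of 8 T cell, 0 of 6 B cell and 0 of 6 natural killer and cytotoxic genes passed in limma, with median differences of 0.01, -0.03 and -0.12. The natural killer and cytotoxic genes all had negative differences, the lowest p being those of Ncr1, an activating receptor gene, with -0.21 (limma adjusted p 0.481), and Gzma, of cytotoxic granules, with -0.15 (0.493). All 6 of these genes had means below the median probe set and may not be read above background. Ptprc, which encodes CD45 and marks all leukocytes, was at 8.27, 7.83 and 7.49 in the expressing arrays and at 8.25, 7.93 and 7.93 in the non-expressing arrays. These overlapped, with a difference of -0.17 (SE 0.19, 95% interval -0.61 to 0.26, limma adjusted p 0.737).

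**Figure D4:**
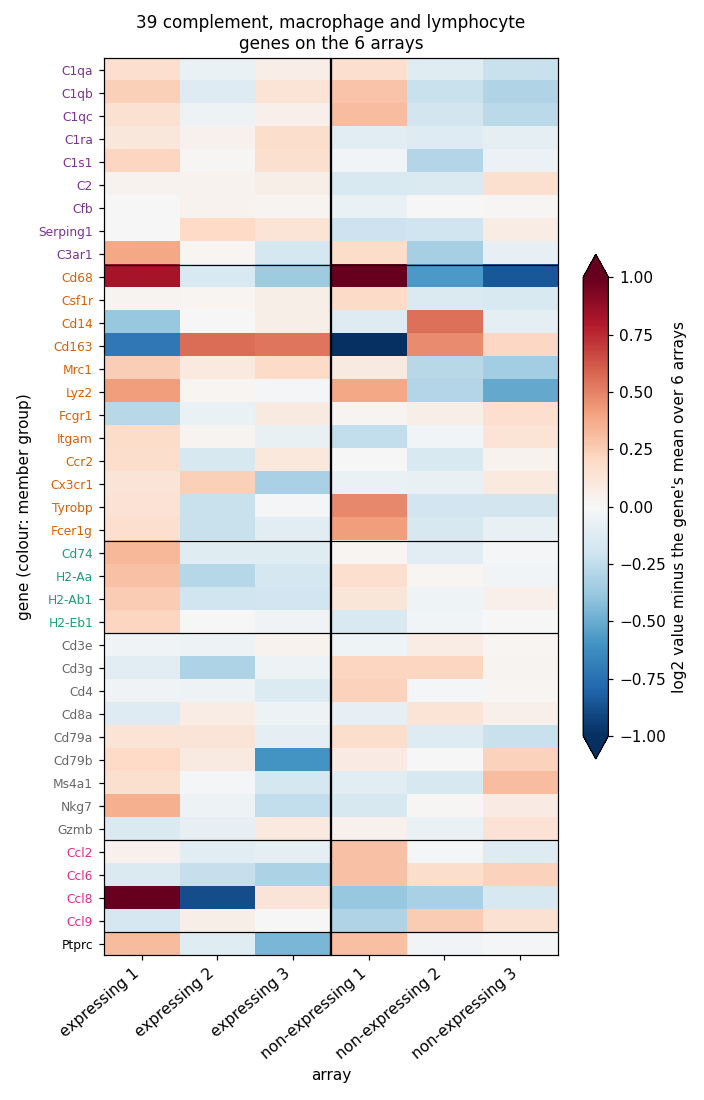
Heat map of the 39 members on the 6 arrays, each shown as its log2 value minus its mean over the arrays, with colours saturating at -1 and 1 and lines between the member groups. Cd68, Cd163 and Ccl8 vary most, and replicate 1 of each group stands out in many macrophage genes.

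Ccl6 had the lowest p of all members and lay clearly apart between the groups. It encodes a CC chemokine made by macrophages and other myeloid cells of the mouse, which acts through the receptor Ccr1. Ccl6 was at 8.68, 8.59 and 8.51 in the expressing arrays and at 9.12, 9.01 and 9.06 in the non-expressing arrays. The gap between the groups exceeded the range within either, and the difference of -0.47 (SE 0.07, 95% interval -0.64 to -0.29) is 1.38-fold (unadjusted p 2.67e-04, limma adjusted p 0.127). Its further probe set was at 6.80, 6.62 and 6.16 against 7.06, 6.89 and 6.84, also without overlap. The difference there was -0.40 (limma over all probe sets, unadjusted p 0.0309, adjusted p 0.359). Left out in turn, no array moved the difference of Ccl6 outside -0.51 to -0.42, and it passed in no setting tried.

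The promoter of Ccl6 is shown because of this lowest p.
Ccl6, chr11:83593038-83593337, minus strand: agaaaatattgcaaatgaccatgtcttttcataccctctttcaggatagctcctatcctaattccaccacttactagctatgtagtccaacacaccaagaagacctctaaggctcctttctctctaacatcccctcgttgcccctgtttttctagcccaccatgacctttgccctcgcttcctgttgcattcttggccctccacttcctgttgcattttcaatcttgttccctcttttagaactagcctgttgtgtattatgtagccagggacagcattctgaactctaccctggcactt
It holds none of the 5 motifs, which says only that these letters are not in this window.

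The other chemokine members did not follow Ccl6. Ccl8, a chemokine gene of macrophages, was at 10.49, 7.98 and 8.99 in the expressing arrays and at 8.48, 8.54 and 8.70 in the non-expressing arrays. The expressing arrays held both the highest and the lowest value, and the difference of 0.58 (SE 0.53, 95% interval -0.64 to 1.80, limma adjusted p 0.679) was -0.092 without expressing replicate 1. Ccl9, the neighbour of Ccl6 on chromosome 11 and also a Ccr1 ligand, had a difference of -0.07 (SE 0.15, limma adjusted p 0.879), and Ccl2, the main attractant of monocytes, one of -0.11 (SE 0.11, limma adjusted p 0.734).

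Chemokine genes of chromosome 11 lie in separate clusters, and their values are given in that order, chosen after they were seen. In the cluster of Ccl6 all 5 measured genes had negative differences: beside Ccl6 and Ccl9, they were -0.29 for Ccl5, -0.40 for Ccl3 and -0.17 for Ccl4 (limma adjusted p 0.390, 0.415 and 0.369). In the cluster of Ccl2 and Ccl8 they were 0.08 for Ccl7, 0.53 for Ccl11, the eosinophil attractant eotaxin, and 0.03 for Ccl12 (limma adjusted p 0.833, 0.211 and 0.955). Over all 24 measured chemokine genes that are no members 0 passed, 7 differences were positive and 17 negative, and the median was -0.11. The lowest p among them were those of Cxcl15, a lung chemokine gene, with -0.36 (limma adjusted p 0.187), and Ccl11. Of 18 chemokine receptors 0 passed and 15 differences were negative, with a median of -0.06. Ccr1, the receptor of Ccl6 and Ccl9, was at 5.68, 4.88 and 5.25 in the expressing arrays and at 6.18, 5.49 and 6.12 in the non-expressing arrays, overlapping, with a difference of -0.66 (SE 0.24, limma adjusted p 0.335). Over the 6 arrays, Ccr1, Ccl3 and Cxcl15 had means below the median probe set of 5.77 and may not be read above background. Ackr1, a decoy receptor gene of venules and red cells, had a difference of 0.16 (limma adjusted p 0.374).

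**Figure D5:**
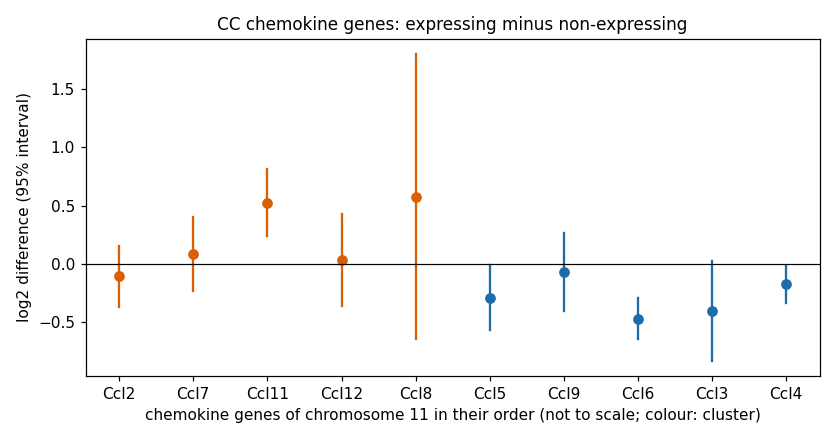
Log2 difference (expressing minus non-expressing) of 10 CC chemokine genes in their order along chromosome 11, with 95% intervals from limma (3 arrays in each group) and colours for the 2 clusters. The 5 genes from Ccl5 to Ccl4 all lie below 0, and Ccl8 has the widest interval.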

How the data were processed

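Total RNA (500 ng per sample, Trizol) was amplified, labelled with biotin and hybridised, per the labels' protocols. Each probe set has 1 log2 value on each array, as deposited. RMA and Partek 6.6 are named, with no role or order, in the submitters' processing notes, with no settings. Sorted from low to high, the arrays' values were never more than 0.155 apart, so a difference is relative to the other genes of the array. Of 45101 rows, 64 control probe sets were left out, and 34945 of the remaining 45037 have 1 gene symbol in the platform annotation. Each gene was represented by its probe set of highest mean over the 6 arrays. The groups were compared with limma 3.58.1 in R 4.3.3 (lmFit, eBayes, two-sided, residual df 4, prior df 3.83), adjusted by Benjamini and Hochberg over 18193 genes. SE is the moderated standard error. Levels of different probe sets are not comparable. Of the genes named from other lists, H2-DMb2, Ciita, Timd4, Ncr1, Gzma and Cd209a also had means below the median probe set and may not be read above background. The precision is limited by 3 arrays in each group, and the script was tested on simulated data. The members and lists were chosen with earlier results of these data known. Full values are given for members with an unadjusted p under 0.05 or groups without overlap, and for the 2 brightest and the 2 of lowest p in each member group. From other lists the 2 genes of lowest p, or genes that neighbour or bind a member, are named, and a gene outside this rule is said to be chosen after its values were seen. Replicate numbers follow the record order and pair no samples. Alternatives were other scaling, filters, priors, weights for arrays, a random block for the title prefix (statmod 1.5.0), the other probe sets and leaving out arrays. Because no prefix holds both groups, this block cannot separate the prefix from the group.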

Additional observations from a re-analysis of the deposited data

How the results depend on the processing

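In each of the 18 alternatives 0 members passed over all genes, with a lowest adjusted p of any member of 0.0627 (limma, intensity trend and robust prior), against 4 of all genes as reported, 19 without dim probe sets, 17 with the trend and robust prior, 26 with array weights, 26 at an adjusted p of 0.1, 12 with the prior variance of all probe sets, 2 without probe sets ending in _x_at or _s_at, 1 with the mean of all probe sets, 4 with a random block for the title prefix and from 0 to 11 with an array left out. Probe sets passing numbered 6, and 31, 37, 43 and 53 without dim ones, with the trend, with weights and at 0.1. The prior of all probe sets and leaving out both arrays numbered 1 were chosen after seeing the data; in the latter 0 members and 3 genes passed, and the group medians were 0.22 for complement, 0.05 for macrophage, -0.13 for class II, -0.09 for lymphocyte and -0.15 for chemokine genes. With 1 array left out these medians spanned 0.08 to 0.23, -0.01 to 0.08, -0.16 to 0.07, -0.11 to -0.03 and -0.12 to -0.05. None of the medians moved by more than the spread of its group's level between arrays. Single differences were followed through the alternatives for 21 named members only, so sign changes of the other members are not listed. Among the named ones, all uncalled, several differences changed sign when 1 array was left out. They spanned -0.014 to 0.28 for C1qc, -0.16 to 0.82 for Cd68, -0.21 to 0.67 for Cd163 and -0.086 to 0.14 for Cd74. For H2-Aa they spanned -0.28 to 0.0059, for Ccl8 -0.092 to 1.16 and for Ptprc -0.38 to 0.013. Without both arrays Cd74 was at -0.060 and Ccl8 at -0.14. Other probe sets gave 0.059 for Fcgr1 and 0.017 for H2-Aa. The cause was not tested. Without non-expressing replicate 1 the adjusted p of Mrc1 was 0.0893. No paired analysis was possible because nothing in the labels ties a sample of one group to a sample of the other.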

Other observations

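Markers of neutrophils, mast cells, dendritic cells and monocytes did not pass in limma. The neutrophil genes S100a8 and S100a9, which encode calprotectin, varied most between arrays: S100a8 was at 6.91, 6.44 and 6.99 in the expressing arrays and at 5.05, 7.98 and 7.20 in the non-expressing arrays. S100a9 was at 7.04, 6.43 and 7.20 against 5.40, 8.83 and 7.50, with non-expressing replicate 1 lowest in both genes. They were chosen after their values were seen. All 6 dendritic cell markers had negative differences with a median of -0.16, the lowest p being those of Cd209a with -0.23 (limma adjusted p 0.407) and Flt3 with -0.20 (0.418). The 5 mast cell markers had a median of 0.06. The 6 monocyte markers had 3 positive differences and 3 negative, with a median of 0.006. The lowest p among them were those of Fn1 and Trem1. Fn1, the fibronectin gene, which fibroblasts also express, had a difference of 0.60 (limma adjusted p 0.187), and Trem1 one of -0.17 (0.520).

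Of the Fc receptor and adaptor genes, 0 of 10 passed, with 4 positive differences and 6 negative and a median of -0.08. The 2 of lowest p were both positive. Syk, the kinase below these receptors, had a difference of 0.20 (limma adjusted p 0.375), and Fcgrt, which encodes the neonatal Fc receptor, one of 0.16 (0.383). Adipocyte markers were uneven: Adipoq, the adiponectin gene, was at 6.10, 7.83 and 6.90 in the expressing arrays and at 5.92, 6.53 and 5.98 in the non-expressing arrays, overlapping, with a difference of 0.80 (limma adjusted p 0.437). Car3 had a difference of 1.07 (0.390), and the mean level of the 5 measured adipocyte markers was highest in expressing replicate 2, at 6.61. The mesothelial markers had a median of 0.23 and the endothelial ones of -0.01, and 0 of either passed.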
